A study of Mus musculus with 13 samples.

Results

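The Hox genes of the mouse were followed across fibro/adipogenic progenitors (FAPs) of skeletal muscle, FAPs of lung and mouse embryonic fibroblasts (MEFs). All genes of the deposited count table with a symbol of the form Hox, a cluster letter a to d and a paralog number were taken, which gave 39 genes of 23418. They are 11 HoxA, 10 HoxB, 9 HoxC and 9 HoxD genes. The study joined mice by parabiosis and sequenced FAPs of muscle and lung to find transcripts that make satellite cells, which are muscle stem cells, differentiate. Its RNA-seq holds 4 libraries of muscle FAPs (replicates 2 to 5), 5 of lung FAPs (1 to 5) and 4 of MEFs (1 to 4). The labels name these groups by tissue and cell type alone. Strain, genotype, age, sex, the muscle that was taken, the gate for FAPs, the stage and body region of the embryos and the passage of the MEFs are not among the labels used here. No treatment is named for any group. FAP and MEF are read as the field uses them, since the labels give only the abbreviations.

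Hox genes encode homeodomain transcription factors and lie in clusters named HoxA to HoxD, within which genes of the same paralog number are related by descent. Position within a cluster follows position in the body. Low paralog numbers are used from the hindbrain and neck downward, and high numbers in the lower trunk, the hindlimb, the distal limb and the tail. Fibroblasts of the adult keep much of the Hox pattern of the place where they formed, and Hox5 genes of the A, B and C clusters act in lung mesenchyme while Hox9 to Hox11 genes pattern the limb.

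Total counts ran from 41327292 to 44699463 per muscle library, 28636183 to 35464622 per lung library and 33756915 to 41466585 per MEF library. Levels are counts per 1000000 counts of a library after TMM scaling (CPM), as mean ± SD over the 4, 5 or 4 libraries, and values in a series follow the replicate numbers. A count of 0 over a group allows up to 0.022, 0.018 or 0.0166 CPM (3 counts) in muscle FAPs, lung FAPs and MEFs. Replicates are separate samples in the labels, which do not say that they came from separate animals or cultures, so the p-values rest on a spread between samples that may be technical. The summed level of the FAP markers Pdgfra, Ly6a and Cd34 was 3614 to 3914 CPM in the muscle, 2589.7 to 4065 in the lung and 113 to 159 in the MEF libraries. Lung FAP 3 stood apart in epithelial markers (7973 CPM for the sum of 7 genes against 19.2 to 99.4 in the other lung libraries). Lung FAP 2 stood apart in endothelial markers (576 against 33.9 to 186 for 6 genes). Markers of other cells also differed between the groups. In the order muscle FAPs, lung FAPs and MEFs, pericyte and smooth muscle markers summed to 62.6 to 71.1, 292 to 1535 and 2003 to 3537 CPM, and tenocyte markers to 851 to 1642, 7.82 to 58.2 and 39.5 to 42.3. Blood cell markers summed to 1.296 to 2.66, 25.4 to 649 (highest in lung FAP 3) and 128 to 471, and the mesothelial ones to 1.15 to 26.97, 361 to 856 and 102 to 135. Their part in the Hox differences was not tested. Without lung FAP 2 and 3, 27 of the 30 Hox genes that differed between muscle and lung FAPs still passed in the same direction. In bulk libraries, fewer cells of a type and less RNA per cell cannot be told apart.

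All groups expressed Hox genes, and each used a different stretch of the clusters. Lung FAPs were limited almost wholly to paralogs 1 to 8, muscle FAPs reached paralog 11 through HoxA and HoxC, and MEFs reached paralog 13. The summed Hox level was 155 ± 14.8 CPM for muscle FAPs, 117 ± 9.03 for lung FAPs and 257 ± 22.8 for MEFs. Paralogs 9 to 13 held 51.2% of that sum in muscle FAPs, but 0.235% in lung FAPs and 63.3% in MEFs. The 16 genes of these paralogs had 46 counts over the 5 lung libraries together, against 10686 over the muscle libraries and 29491 over the MEFs. These sums add reads over genes, so longer transcripts weigh more in them.

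The cluster that led also differed. HoxC held 49.3% of the Hox sum in muscle FAPs (76.2 ± 6.504 CPM), 4.62% in lung FAPs (5.29 ± 1.78) and 20.5% in MEFs (52.8 ± 6.29). HoxB held 11.7% in muscle FAPs (18.4 ± 5.92 CPM), 52.4% in lung FAPs (61.2 ± 6.19) and 36% in MEFs (92.6 ± 9.39). HoxD reached 12.4 ± 0.597, 1.27 ± 0.716 and 51.6 ± 5.699 CPM in muscle FAPs, lung FAPs and MEFs. HoxA was the most even of the clusters, at 47.8 ± 3.21, 49.04 ± 6.56 and 60.2 ± 6.598 CPM. The groups did not overlap in the HoxC, HoxB or HoxD sum between muscle FAPs, lung FAPs and MEFs, and in HoxA the sums of lung FAPs overlapped both those of muscle FAPs and those of MEFs.

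With presence set at 1 CPM or more in every library of a group, 21 of the 39 Hox genes were present in muscle FAPs, with 13 in lung FAPs and 30 in MEFs. In muscle FAPs these included Hoxa3, Hoxa5 to Hoxa7 and Hoxa9 to Hoxa11, Hoxb2 to Hoxb4 and Hoxb6, Hoxc4 to Hoxc11, and Hoxd8 and Hoxd9. Lung FAPs held Hoxa2 to Hoxa5 and Hoxa7, Hoxb2 to Hoxb7, and Hoxc4 and Hoxc5, with no HoxD gene. Those in MEFs included Hoxa2, Hoxa3, Hoxa5, Hoxa7, Hoxa9 to Hoxa11 and Hoxa13, Hoxb2 to Hoxb9, Hoxc4 to Hoxc10 and Hoxc13, and Hoxd8 to Hoxd13. Hoxb13 missed the threshold in MEFs by 1 library, at 0.999 CPM. At 2 CPM the count for lung FAPs falls to 8. Hoxb1, the hindbrain member of HoxB, had no count in any library, and Hoxd1 had at most 0.0727 CPM.

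**Figure D1:**
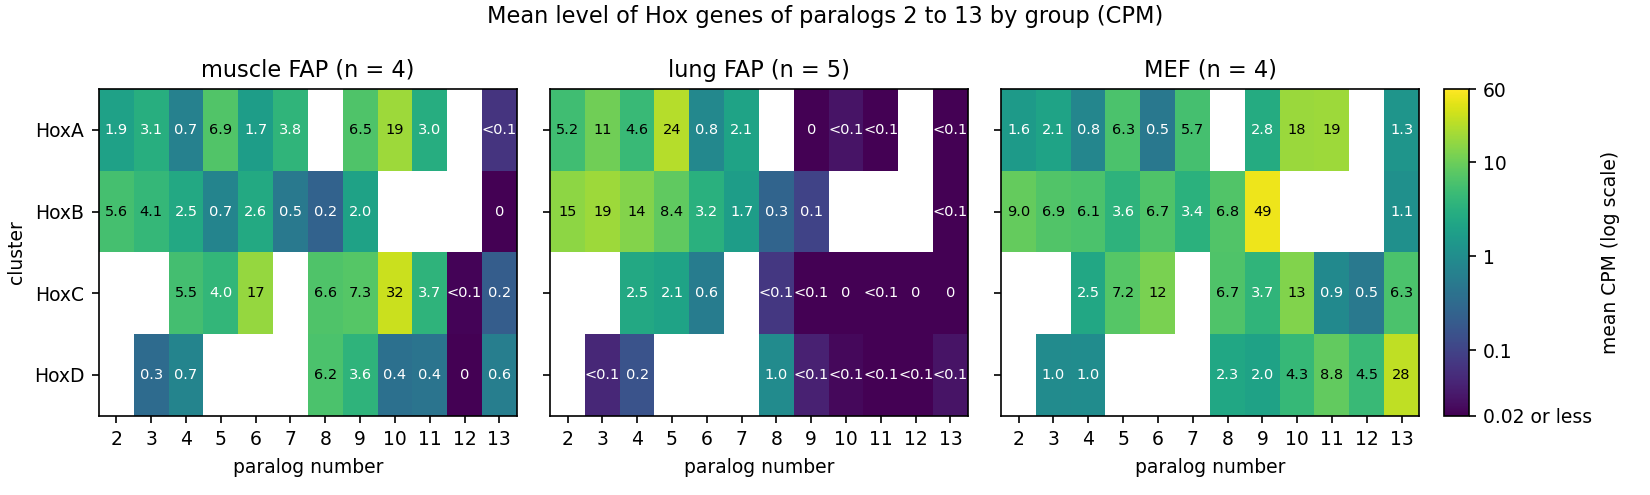
Mean level of Hox genes of paralogs 2 to 13 in CPM (number and colour, log scale), with cluster in rows and paralog number in columns, for muscle FAPs, lung FAPs and MEFs. White cells are paralogs that a cluster lacks or that have no member in the table. The last paralog at 1 CPM or more in every library differs by cluster. In lung FAPs it is 7 in HoxA, 7 in HoxB and 5 in HoxC, with none in HoxD. From HoxA to HoxD it is 11, 6, 11 and 9 in muscle FAPs and 13, 9, 13 and 13 in MEFs.

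Of the 37 Hox genes that passed the filter on low counts, 21 were higher in muscle than in lung FAPs and 9 were lower (edgeR adjusted p under 0.05). Over all 15412 genes tested, 23.2% were higher and 25.0% lower, 48.2% in either direction. Of the tested Hox genes 56.8% were higher and 24.3% lower. Hoxb1 and Hoxd1 were not tested. Some of the 37 passed the filter through MEFs alone. With muscle and lung FAPs filtered and fitted without MEFs, 27 Hox genes were tested, among them 23 of the 30 called ones, and 12 were higher and 9 lower. Among paralogs 1 to 8, 8 were higher and 9 lower of 21, and among paralogs 9 to 13, 13 of 16 were higher. None of the latter was lower by edgeR, 0 at an unadjusted p under 0.05 and 0 by the DESeq2 Wald test. These genes had 46 counts over the lung libraries together and passed the filter through the other groups, so a lower call was hardly possible. By cluster, 5 HoxA genes were higher and 4 lower of 11, 1 HoxB gene was higher and 5 lower of 9, 8 of 9 HoxC genes were higher and 7 of 8 HoxD genes were higher. The libraries of both kinds of FAP did not overlap for 27 of the 37, against 37.9% of all genes tested.

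HoxA lies on chromosome 6 (chr6:52155590-52260880, minus strand, GRCm38, the build also called mm10) and changed direction along its length. Hoxa2 to Hoxa5, which act in hindbrain, neck and thoracic development, were higher in lung FAPs. Hoxa9 to Hoxa13, which act in the lower trunk and limb, were higher in muscle FAPs. Hoxa7 was the last HoxA gene present in lung FAPs and Hoxa9, its measured neighbour, had no count there. The 250 bases before the RefSeq start sites of Hoxa5, Hoxa7, Hoxa9 and Hoxa10 (GRCm38.p6) are shown because they lie on both sides of that break. They are written 5′ to 3′ on the strand of the gene, and capitals mark a TATAAA motif, here found on the opposite strand and so read as TTTATA. For Hoxa10 the start nearer to Hoxa9 is shown.
Hoxa5 (chr6:52204588-52204837, minus strand): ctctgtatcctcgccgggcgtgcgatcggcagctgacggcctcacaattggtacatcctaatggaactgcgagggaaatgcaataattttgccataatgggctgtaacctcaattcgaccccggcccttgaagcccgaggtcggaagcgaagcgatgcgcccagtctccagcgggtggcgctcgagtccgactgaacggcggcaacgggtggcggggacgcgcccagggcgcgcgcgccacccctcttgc
Hoxa7 (chr6:52218574-52218823, minus strand): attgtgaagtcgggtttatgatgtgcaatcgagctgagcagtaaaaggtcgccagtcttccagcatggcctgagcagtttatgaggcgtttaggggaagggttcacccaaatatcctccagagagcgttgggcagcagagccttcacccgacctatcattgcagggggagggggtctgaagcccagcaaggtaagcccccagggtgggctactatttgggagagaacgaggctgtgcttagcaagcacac
Hoxa9 (chr6:52227371-52227620, minus strand): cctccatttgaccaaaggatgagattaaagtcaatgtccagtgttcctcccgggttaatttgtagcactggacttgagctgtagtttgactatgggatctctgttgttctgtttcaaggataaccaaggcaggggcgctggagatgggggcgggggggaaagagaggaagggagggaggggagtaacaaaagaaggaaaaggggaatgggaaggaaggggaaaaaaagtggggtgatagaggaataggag
Hoxa10 (chr6:52234940-52235189, minus strand): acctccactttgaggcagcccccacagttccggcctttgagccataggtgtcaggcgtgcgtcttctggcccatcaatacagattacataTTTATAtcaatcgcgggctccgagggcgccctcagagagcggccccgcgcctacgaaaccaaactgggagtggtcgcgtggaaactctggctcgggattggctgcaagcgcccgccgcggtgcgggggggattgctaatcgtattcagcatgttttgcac

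The dinucleotide CG occurs 28 times in the Hoxa5 window, 7 times in that of Hoxa7, 3 times in that of Hoxa9 and 20 times in the one shown for Hoxa10. The median was 12.5 over 24 windows of 22 Hox genes with an entry and 6 over 32851 windows of all genes. TATAAA was searched on both strands and occurs in 4 of 24 Hox windows (those of Hoxa10, Hoxb8, Hoxd4 and Hoxd13) and in 12.4% of all windows. TGATNNAT, a form of the site that Hox and Pbx proteins bind together, occurs in 4 Hox windows (Hoxa2, Hoxb1, Hoxb8 and Hoxd11) and in 7.68% of all windows. In the Hoxb8 window both motifs occur. The matches are descriptions of the letters, and no binding was measured.

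Hoxa5, which is required for lung development, was the Hox gene with the highest level per length in lung FAPs, at 12.99 ± 2.501 CPM per kb of exons. It stood at 21.99, 31.7, 21.5, 20.3 and 26.4 CPM in the lung libraries, 8.79, 7.04, 4.95 and 6.67 in the muscle libraries and 5.67, 6.88, 6.996 and 5.49 in MEFs. Every lung library lay above every other library, and lung FAP 2 was the highest. Hoxa5 was 3.55-fold lower in muscle FAPs than in lung FAPs (log2 fold change −1.83 with SE 0.206, edgeR adjusted p = 1.43e-06) and, in lung FAPs, 3.895-fold higher than in MEFs (edgeR adjusted p = 1.15e-07). Hoxa2, Hoxa3 and Hoxa4 were lower in muscle FAPs by 2.69-fold, 3.49-fold and 6.88-fold, and their edgeR log2 fold changes were −1.43, −1.80 and −2.78. Their means were 5.205, 10.7 and 4.59 CPM in lung FAPs, and the libraries did not overlap for any of them.

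The change of direction came between Hoxa5 and Hoxa7. Hoxa6 stood at 1.75 ± 0.619 CPM in the muscle libraries and 0.844 ± 0.3896 in the lung libraries and did not pass (edgeR log2 fold change 1.05, adjusted p = 0.0555). It passed in DESeq2 (adjusted p = 0.0386) and in edgeR without lung FAP 2 (0.0316) or without lung FAP 2 and 3 (0.0254). Hoxa7 stood at 4.63, 3.87, 3.37 and 3.29 CPM in the muscle libraries, 1.804, 2.396, 2.41, 2.09 and 1.68 in the lung libraries and 5.11, 5.58, 7.09 and 4.94 in MEFs. Muscle libraries were all higher than lung libraries, by 1.82-fold (log2 fold change 0.87 with SE 0.151, edgeR adjusted p = 0.00285), a call lost with library size as the only scaling (edgeR adjusted p = 0.08202). Hoxa9, which is used in the lower thoracic and lumbar region and the limb, stood at 7.02, 5.09, 6.59 and 7.42 CPM in muscle FAPs and 2.399, 2.89, 2.703 and 3.11 in MEFs, with no count in any of the 5 lung libraries. Against 3 counts over the lung group it was at least 363-fold higher in the muscle libraries (edgeR adjusted p = 1.39e-08).

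Hoxa10 and Hoxa11, limb genes that pattern the upper and lower segment of the limb, gave different answers in muscle FAPs. Hoxa10 led HoxA in muscle FAPs at 5.91 ± 0.387 CPM per kb. It stood at 17.3, 19.2, 17.9 and 19.9 CPM in muscle FAPs, 17.6, 18.2, 19.1 and 16.7 in MEFs and 0.0573, 0, 0.0297, 0.0332 and 0.0301 in lung FAPs. Muscle FAPs and MEFs overlapped, and 4 lung libraries held 1 or 2 counts each. Hoxa10 was 618-fold higher in muscle than in lung FAPs (log2 fold change 9.12 with SE 0.176, edgeR adjusted p = 3.40e-12) and did not pass between muscle FAPs and MEFs (edgeR log2 fold change 0.051, adjusted p = 0.773). Scaled by library size alone the latter was −0.53 and passed (edgeR adjusted p = 0.00615).

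Hoxa11 stood at 2.94, 2.96, 4.15 and 1.83 CPM in muscle FAPs and at 16.6, 21.2, 19.9 and 16.6 in MEFs, with 1 count in all lung libraries, in lung FAP 4. MEFs lay above every muscle library, 6.26-fold (log2 fold change −2.64 with SE 0.255, edgeR adjusted p = 2.78e-07). The ratio of muscle FAPs to lung FAPs was 497 (95% counting interval 88.7 to 19687, edgeR adjusted p = 4.98e-09), and that of MEFs to lung FAPs was 3106 (557 to 122715). Without lung FAP 4 the edgeR log2 fold changes moved from 8.31 to 9.81 and from −10.95 to −12.47. Exons of Hoxa11 overlap those of its antisense RNA Hoxa11as over 24.8% of their length, and reads of both cannot be told apart there, since the strand of the libraries is not given. Hoxa13, a gene of hand, foot and tail, stood at 1.38, 1.32, 1.16 and 1.31 CPM in MEFs and 0.0582, 0.118, 0.0288 and 0.0599 in muscle FAPs, with 1 count in lung FAPs. It was 19.5-fold lower in muscle FAPs than in MEFs (edgeR adjusted p = 1.84e-05). Its ratio of muscle to lung FAPs, 11.02 (1.53 to 483), rested on 9 counts against 1. That call (edgeR adjusted p = 0.0138) was lost without muscle FAP 3 (adjusted p = 0.0541), without muscle FAP 3 and 5 (0.125) and without lung FAP 2 and 3 (0.0703), and without lung FAP 5 the log2 fold change was 4.38.

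HoxB (chr11:96194316-96368256, plus strand) was the cluster of lung FAPs and of MEFs. Hoxb2 to Hoxb5 and Hoxb7 were higher in lung FAPs than in muscle FAPs, all 9 tested HoxB genes were lower in muscle FAPs than in MEFs, and Hoxb9 was far higher in MEFs than in FAPs of either tissue. Hoxb2, a regulator of hindbrain segments, led HoxB in both kinds of FAP, at 9.37 ± 1.13 CPM per kb in lung and 3.46 ± 0.788 in muscle FAPs. It stood at 12.2, 15.9, 16.9, 16.3 and 15.1 CPM in lung FAPs, 6.901, 5.74, 3.86 and 6.05 in muscle FAPs and 8.21, 9.06, 11.2 and 7.56 in MEFs. The 3 groups did not overlap, and the order was lung FAPs, MEFs, muscle FAPs. Muscle FAPs were 2.71-fold below lung FAPs (log2 fold change −1.44 with SE 0.197, edgeR adjusted p = 1.33e-05).

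Hoxb3 and Hoxb4 stood at 18.5 ± 1.81 and 13.7 ± 1.37 CPM in lung FAPs and were lower in muscle FAPs by 4.54-fold and 5.51-fold (edgeR log2 fold changes −2.18 and −2.46). Hoxb5, which with Hoxa5 and Hoxc5 acts in lung branching, stood at 6.07, 8.53, 8.86, 9.87 and 8.75 CPM in lung FAPs and 1.66, 0.503, 0.432 and 0.329 in muscle FAPs. No muscle library reached a lung library, and muscle FAP 2 was high among the muscle libraries. Hoxb5 was 11.5-fold lower in muscle FAPs (log2 fold change −3.52 with SE 0.494, edgeR adjusted p = 9.17e-06), and without muscle FAP 2 the log2 fold change was −4.31. Against MEFs, which held 3.59 ± 1.096 CPM, it was −2.29 in muscle FAPs in edgeR (adjusted p = 1.58e-04) and −3.10 without that library. Hoxb2 to Hoxb5 were also higher in lung FAPs than in MEFs, by 1.69-fold, 2.699-fold, 2.23-fold and 2.35-fold (edgeR adjusted p of 0.00108, 2.54e-05, 1.51e-04 and 0.00766), and without MEF 2 and 4 Hoxb5 did not pass there (0.0766).

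Hoxb6 and Hoxb7 mark the step at the end of expression. Hoxb6 stood at 2.53, 3.02, 1.07 and 3.89 CPM in the muscle libraries, 1.58, 4.45, 3.69, 3.19 and 3.25 in the lung libraries and 6.25, 6.304, 8.34 and 5.96 in MEFs. Both kinds of FAP overlapped (edgeR log2 fold change −0.30, adjusted p = 0.489), and every MEF lay above them. Hoxb7 stood at 1.83, 1.97, 1.28, 2.33 and 1.32 CPM in lung FAPs and 0.786, 0.7097, 0.0864 and 0.449 in muscle FAPs, 3.44-fold lower in the latter (edgeR adjusted p = 0.00461). Muscle FAP 4 was the lowest of them. In MEFs Hoxb7 stood at 3.61, 3.82, 3.59 and 2.48 CPM, and its difference from lung FAPs was near the threshold (edgeR log2 fold change −0.95, adjusted p = 0.049), lost under upper-quartile scaling (0.0517), and lost when lung FAP 1, lung FAP 3, lung FAP 5, MEF 1, MEF 2 or MEF 3 was left out (0.06002 to 0.108). That call was lost as well without muscle FAP 5 and with the replicate number as a block.

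Hoxb8 and Hoxb9, genes of the thoracic and lumbar region, were highest in MEFs. Hoxb8 stood at 6.69, 7.17, 8.43 and 4.998 CPM in MEFs, 0.204, 0.384, 0 and 0.389 in muscle FAPs and 0.0573, 0.571, 0.327, 0.266 and 0.0903 in lung FAPs. Both kinds of FAP overlapped and lay far below MEFs, by 27.9-fold for muscle FAPs (log2 fold change −4.79 with SE 0.735, edgeR adjusted p = 2.33e-05) and 26.02-fold for lung FAPs. Hoxb9 had the highest level per length of any Hox gene in MEFs, 19.03 ± 0.763 CPM per kb. It stood at 47.6, 50.2, 51.1 and 47.03 CPM in MEFs, 0.786, 3.55, 0.2303 and 3.62 in muscle FAPs and 0.143, 0.171, 0.0892, 0.0332 and 0.0602 in lung FAPs. The 3 groups did not overlap, and muscle FAP 3 and 5 lay well above muscle FAP 2 and 4. Muscle FAPs were 23.9-fold below MEFs (edgeR adjusted p = 8.55e-06) and 20.6-fold above lung FAPs (log2 fold change 4.28 with SE 0.9299, edgeR adjusted p = 4.16e-04). The latter call was lost in limma-voom with sample weights (adjusted p = 0.0813) and kept with muscle FAP 2 and 4 as the only muscle libraries (edgeR log2 fold change 2.28, adjusted p = 0.00219). Hoxb13, a gene of the tail and hindgut region, stood at 1.09, 1.02, 0.999 and 1.33 CPM in MEFs with no count in muscle FAPs and 1 in lung FAPs, at least 50.4-fold lower in muscle FAPs (edgeR adjusted p = 8.66e-06). In edgeR the lung difference was −6.89 on the log2 scale and −8.41 without lung FAP 4, which held the count.

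**Figure D2:**
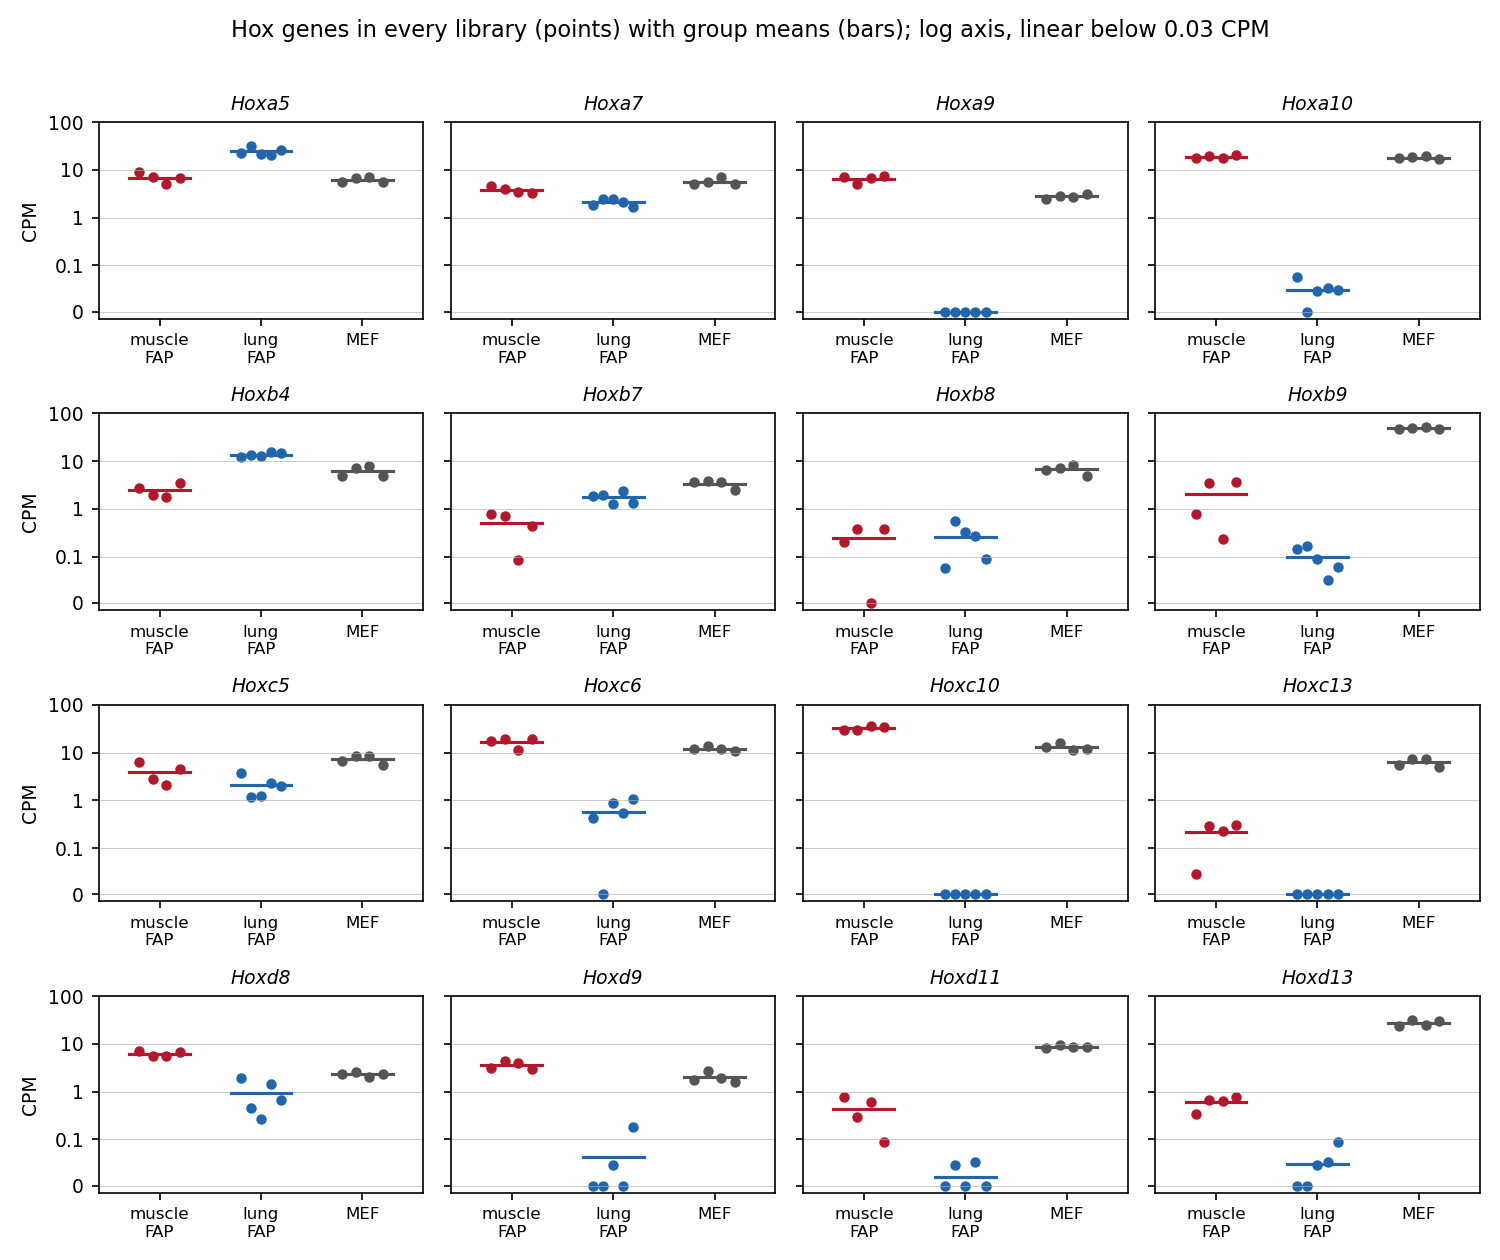
CPM of 16 Hox genes in each library (points) with the group mean (bar) for muscle FAPs, lung FAPs and MEFs, on a log axis that is linear below 0.03 CPM. Rows are HoxA, HoxB, HoxC and HoxD. Hoxa5 and Hoxb4 are highest in lung FAPs, Hoxa9 and Hoxc10 lie at 0 there, and Hoxb9, Hoxc13, Hoxd11 and Hoxd13 are highest in MEFs.

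HoxC (chr15:102921103-103036852, plus strand) held the largest share of the summed Hox level in muscle FAPs. 8 of 9 genes were higher in muscle than in lung FAPs and 0 lower by edgeR, with 0 lower at an unadjusted p under 0.05 and 0 by the DESeq2 Wald test. Over all genes tested 23.2% were higher and 25.0% lower. Hoxc9 to Hoxc13 had at most 1 count each over the lung libraries and passed the filter through the other groups. A lower call was therefore hardly possible for them. Hoxc10, a gene of the hindlimb and lumbar region, had the highest level per length of any Hox gene in muscle FAPs, 16.8 ± 1.65 CPM per kb. It stood at 29.1, 29.5, 35.3 and 34.1 CPM in muscle FAPs and 13.1, 15.6, 11.4 and 12.1 in MEFs, with no count in any lung FAP. Every muscle library lay above every MEF, by 2.45-fold (log2 fold change 1.29 with SE 0.121, edgeR adjusted p = 7.32e-06). Against 3 counts over the lung group, Hoxc10 was at least 1780.4-fold higher in muscle FAPs and at least 726-fold higher in MEFs (edgeR adjusted p = 2.29e-10 and 2.57e-11).

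Hoxc4 and Hoxc5, cervical and thoracic genes, were the HoxC genes that lung FAPs held. Hoxc4 stood at 7.22, 4.76, 4.72 and 5.12 CPM in the muscle libraries, 3.18, 1.28, 2.91, 2.33 and 3.01 in the lung libraries and 1.96, 3.25, 2.48 and 2.19 in MEFs. Muscle libraries were all above both other groups, 2.15-fold over lung FAPs (log2 fold change 1.10 with SE 0.275, edgeR adjusted p = 0.00378), and lung FAPs and MEFs overlapped. Hoxc5 stood at 6.41, 2.81, 2.07 and 4.58 CPM in the muscle libraries, 3.67, 1.17, 1.25, 2.36 and 1.99 in the lung libraries and 6.59, 8.51, 8.29 and 5.43 in MEFs. Muscle and lung FAPs overlapped, and the call between them (edgeR log2 fold change 0.93, adjusted p = 0.0478) was lost on leaving out any of muscle FAP 2, muscle FAP 5, lung FAP 2, lung FAP 3, lung FAP 4 or lung FAP 5 (log2 fold change 0.59, edgeR adjusted p = 0.207 without muscle FAP 2). It was also lost with library size as the only scaling, under upper-quartile scaling (edgeR adjusted p = 0.0606) and with the 2 groups fitted alone (0.08704). The same held in limma-voom, with the replicate number as a block, and on leaving out MEF 1, MEF 2, MEF 3 or MEF 4.

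From Hoxc6 upward HoxC was low or without counts in lung FAPs. Hoxc6, a gene of the thorax and the forelimb level, stood at 17.6, 19.5, 11.4 and 19.5 CPM in muscle FAPs, 11.7, 13.8, 12.04 and 10.6 in MEFs and 0.4296, 0, 0.863, 0.532 and 1.05 in lung FAPs, with no count in lung FAP 2. Muscle FAPs and MEFs overlapped and lay above all lung libraries. It was 29.5-fold higher in muscle than in lung FAPs (log2 fold change 4.88 with SE 0.805, edgeR adjusted p = 4.09e-06) and led HoxC per length in MEFs at 7.62 ± 0.849 CPM per kb. Hoxc8 stood at 6.202, 7.98, 2.62 and 9.46 CPM in muscle FAPs, 6.93, 6.601, 6.61 and 6.51 in MEFs and 0, 0.0856, 0, 0.0997 and 0.181 in lung FAPs. Muscle FAP 4 was the lowest muscle library and still far above lung FAPs, which as a group lay 89.8-fold below muscle FAPs (edgeR log2 fold change 6.44, 7.09 without lung FAP 5).

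Hoxc9 stood at 5.85, 8.72, 6.74 and 7.81 CPM in muscle FAPs and 3.15, 4.41, 3.82 and 3.46 in MEFs, with 1 count in lung FAPs, in lung FAP 5. Muscle FAPs lay above MEFs in every library, by 1.96-fold (edgeR adjusted p = 0.00487), a call lost with library size as the only scaling (adjusted p = 0.212) and without muscle FAP 3 and 5 (0.113). The ratio of muscle to lung FAPs was 1214 (95% counting interval 217 to 47984). In edgeR it was 9.61 on the log2 scale and 11.09 without lung FAP 5, and against MEFs −8.63 and −10.14. Hoxc9 shares a run of 50 bases with Hoxb9, among the longest runs that any pair of Hox genes shares, and the length of the reads is not given in the sources used here. Hoxc11 stood at 2.68, 4.05, 4.92 and 3.02 CPM in muscle FAPs and 0.557, 0.913, 1.25 and 0.8399 in MEFs, with 1 count in lung FAPs, in lung FAP 1. Muscle FAPs lay 4.12-fold above MEFs (log2 fold change 2.04 with SE 0.299, edgeR adjusted p = 4.00e-04), with no overlap. Its ratio of muscle to lung FAPs was 614 (109.6 to 24282), and without lung FAP 1 the log2 fold change moved from 8.62 to 10.10, and that of lung FAPs against MEFs from −6.58 to −8.06.

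The end of HoxC in muscle FAPs came after Hoxc11. Hoxc12 stood at 0.412, 0.531, 0.727 and 0.389 CPM in MEFs, with 3 counts in muscle FAPs, all in muscle FAP 4, and none in lung FAPs. The ratio of MEFs to muscle FAPs was 23.3 (95% counting interval 7.74 to 115, edgeR adjusted p = 0.00231), with a log2 fold change of −4.36 that was −7.29 without muscle FAP 4. Hoxc13, known for hair, nail and tail, stood at 5.501, 7.34, 7.47 and 4.88 CPM in MEFs and 0.0291, 0.296, 0.2303 and 0.299 in muscle FAPs, with no count in lung FAPs. MEFs were 29.5-fold above muscle FAPs (log2 fold change −4.86 with SE 0.523, edgeR adjusted p = 6.24e-06) and at least 350.4-fold above lung FAPs. Muscle FAPs were at least 11.9-fold above lung FAPs (edgeR adjusted p = 4.14e-04).

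HoxD (chr2:74668310-74765142, plus strand) was low throughout in lung FAPs and low in muscle FAPs outside Hoxd8 and Hoxd9. From Hoxd10 upward it was highest in MEFs. 7 of 8 genes were higher in muscle than in lung FAPs, and 0 were lower by edgeR, at an unadjusted p under 0.05 or by the DESeq2 Wald test. Of all genes tested, 23.2% were higher and 25.0% lower. Hoxd9 to Hoxd13 had 1 to 7 counts each over the lung libraries and passed the filter through the other groups. For them a lower call was hardly possible. Hoxd8 led HoxD in muscle FAPs at 2.26 ± 0.266 CPM per kb and in lung FAPs at 0.347 ± 0.259. It stood at 6.96, 5.68, 5.499 and 6.704 CPM in the muscle libraries, 1.95, 0.456, 0.268, 1.43 and 0.662 in the lung libraries and 2.35, 2.63, 2.02 and 2.38 in MEFs. Muscle libraries were the highest and lung FAPs varied widely, with lung FAP 1 and 4 above lung FAP 2, 3 and 5. Hoxd8 was 6.52-fold higher in muscle than in lung FAPs (log2 fold change 2.70 with SE 0.493, edgeR adjusted p = 1.11e-04) and 2.65-fold higher than in MEFs (edgeR adjusted p = 0.00926), the latter lost with library size as the only scaling (0.0898).

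Hoxd9 stood at 3.14, 4.47, 3.92 and 2.93 CPM in muscle FAPs, 1.79, 2.67, 1.93 and 1.58 in MEFs and 0, 0, 0.0297, 0 and 0.181 in lung FAPs. Muscle FAPs did not overlap MEFs, yet their difference did not pass in edgeR (log2 fold change 0.86, adjusted p = 0.161), while it did in DESeq2 (adjusted p = 0.0353) and in limma-voom (3.48e-04). The muscle level was 85.96-fold above lung FAPs (edgeR log2 fold change 6.32, adjusted p = 3.51e-06), and 8.39 on the log2 scale without lung FAP 5, which held 6 of the 7 lung counts. Lung FAPs against MEFs gave −5.46 in edgeR and −7.55 without that library. Hoxd3 and Hoxd4, neck genes of the other end of the cluster, stood at 0.324 ± 0.136 and 0.743 ± 0.284 CPM in the muscle libraries and 0.0491 ± 0.0629 and 0.157 ± 0.1901 in the lung libraries. Both were higher in the muscle libraries (edgeR adjusted p = 0.00988 and 0.0288), but Hoxd3 lost its call without muscle FAP 3 and 5 (adjusted p = 0.0889) and Hoxd4 without muscle FAP 2 (0.0634) or muscle FAP 3 (0.0816). Without lung FAP 5 the log2 fold change of Hoxd3 moved from 2.66 to 3.66, and without lung FAP 4 that of Hoxd4 moved from 2.24 to 3.16.

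Hoxd10 to Hoxd13, which pattern the distal limb, the genital bud and the tail, were highest in MEFs. Hoxd13 had 11.2 ± 1.56 CPM per kb in MEFs, next to Hoxb9 in the order of levels per length there. It stood at 23.8, 31.2, 24.9 and 30.8 CPM in MEFs, 0.349, 0.6801, 0.633 and 0.778 in muscle FAPs and 0, 0, 0.0297, 0.0332 and 0.0903 in lung FAPs. The 3 groups did not overlap. Muscle FAPs were 45.4-fold below MEFs (log2 fold change −5.50 with SE 0.252, edgeR adjusted p = 5.38e-10) and 19.9-fold above lung FAPs (edgeR adjusted p = 4.81e-06), and lung FAPs were 903-fold below MEFs. Without lung FAP 5 the log2 fold changes of muscle and MEF against lung moved from 4.20 to 5.07 and, with lung FAPs as the lower group, from −9.70 to −10.59.

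Hoxd12 stood at 4.12, 5.84, 4.04 and 4.12 CPM in MEFs, with no count in muscle FAPs and 1 in lung FAPs. It was at least 206-fold lower in muscle FAPs (edgeR adjusted p = 1.09e-07), the bound set by 3 counts over the group. Hoxd10 stood at 3.88, 4.69, 3.82 and 4.79 CPM in MEFs and 0.116, 0.414, 0.7198 and 0.299 in muscle FAPs, and Hoxd11 at 8.21, 9.402, 8.79 and 8.73 and 0.757, 0.296, 0.605 and 0.0898. Both were lower in every muscle library than in any MEF, by 11.1-fold and 20.1-fold (edgeR adjusted p = 7.52e-05 and 1.17e-06). Lung FAPs held 4 counts of Hoxd10 and 2 of Hoxd11. Muscle FAPs lay 16.3-fold above lung FAPs for Hoxd10 (edgeR log2 fold change 3.84, 5.17 without lung FAP 2), and the ratio for Hoxd11 was 36.7 (95% counting interval 9.74 to 310.3). The size of the lung against MEF differences depended on single lung libraries too. That of Hoxd10 was −7.30 in edgeR and −8.64 without lung FAP 2, and that of Hoxd12 was −8.91 and −10.44 without lung FAP 4.

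Against MEFs, muscle FAPs were lower in 19 Hox genes and higher in 7 of 37, where 37.3% of all genes tested were lower, 36.1% higher and 73.5% in either direction. With library size as the only scaling the split was 23 lower and 4 higher. The higher genes were Hoxa6, Hoxa9, Hoxc4, Hoxc9, Hoxc10, Hoxc11 and Hoxd8. Of these, Hoxc4, Hoxc9 and Hoxd8 lost their calls with library size as the only scaling (edgeR adjusted p = 0.0749, 0.212 and 0.0898) and Hoxa6 without MEF 2 and 4 (0.0564). The 11 genes that did not pass were Hoxa2 to Hoxa5, Hoxa10, Hoxc5, Hoxc6, Hoxc8, Hoxd3, Hoxd4 and Hoxd9, and their edgeR log2 fold changes ran from −1.54 for Hoxd3 (adjusted p = 0.0519) to 0.86 for Hoxd9. Hoxd3 passed in DESeq2 (adjusted p = 0.0299). Hoxc5 (edgeR log2 fold change −0.86, adjusted p = 0.0532) passed in DESeq2 (0.0337), in limma-voom (3.62e-04) and in edgeR without muscle FAP 2 (0.0135) or MEF 4 (0.0418). Hoxc5 and Hoxd3 also passed under the other 3 scalings and, like Hoxc6 and Hoxd9, with the compared groups fitted alone. Hoxa3 (edgeR adjusted p = 0.0617) passed in limma-voom (0.0438), under the 5 CPM filter (0.0413) and without muscle FAP 3 (0.0457) or MEF 3 (0.0284), and Hoxa4 with library size as the only scaling (0.03398). All 9 tested HoxB genes were lower, with 0 higher by edgeR, at an unadjusted p under 0.05 or by the DESeq2 Wald test. Their log2 fold changes ran from −0.68 for Hoxb2 to −4.58 for Hoxb9 and −8.37 for Hoxb13. The Pearson correlation between paralog number and log2 fold change was −0.96 over 9 HoxB genes, −0.538 over 11 HoxA, −0.511 over 9 HoxC and −0.621 over 8 HoxD genes, and −0.529 over all 37, which share their libraries. By rank (Spearman) the values were −0.967, −0.327, −0.25 and −0.762 in the same order, and −0.381 over all 37. Hoxb13 and Hoxd12 had no count in muscle FAPs, so their log2 fold changes depend on the prior count. Hoxa7 was lower by 1.498-fold (edgeR adjusted p = 0.0236) and lost its call without any of muscle FAP 4, muscle FAP 5 or MEF 3 (up to 0.0787). Libraries did not overlap for 28 Hox genes, against 73.9% of all genes tested, which is near the Hox share of 75.7%.

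Lung FAPs were lower than MEFs in 27 Hox genes and higher in 8 of 37, where 36.6% of all genes tested were lower, 37.8% higher and 74.4% in either direction. The higher genes were Hoxa2 to Hoxa5 and Hoxb2 to Hoxb5, and Hoxa6 and Hoxc4 did not pass, though Hoxa6 did without lung FAP 1 (edgeR adjusted p = 0.0459). All 16 genes of paralogs 9 to 13 were lower, with a median log2 fold change of −8.89, and 0 were higher by edgeR, at an unadjusted p under 0.05 or by the DESeq2 Wald test. With 46 counts over the lung libraries together, these genes passed the filter through the other groups. A higher call was therefore hardly possible for them, and the count of lower genes was nearly fixed by the filter. Hoxd8 was lower too, a call lost without MEF 2 and 4 (edgeR adjusted p = 0.0644). The median over all tested Hox genes was −4.39, against 0.019 over all genes. It was −0.75 for muscle FAPs against MEFs and 2.24 for muscle against lung FAPs, with −0.041 and −0.037 over all genes. The medians that involve lung FAPs include the 16 genes of paralogs 9 to 13, which passed the filter through the other groups. Over the 21 tested genes of paralogs 1 to 8 the median was −0.949 for lung FAPs against MEFs. For the same genes it was −0.109 for muscle against lung FAPs and −0.583 for muscle FAPs against MEFs. Libraries of lung FAPs and MEFs did not overlap for 35 of 37, against 65.3% of all genes tested. The 3 comparisons share their groups, so their values for a gene are not independent.

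**Figure D3:**
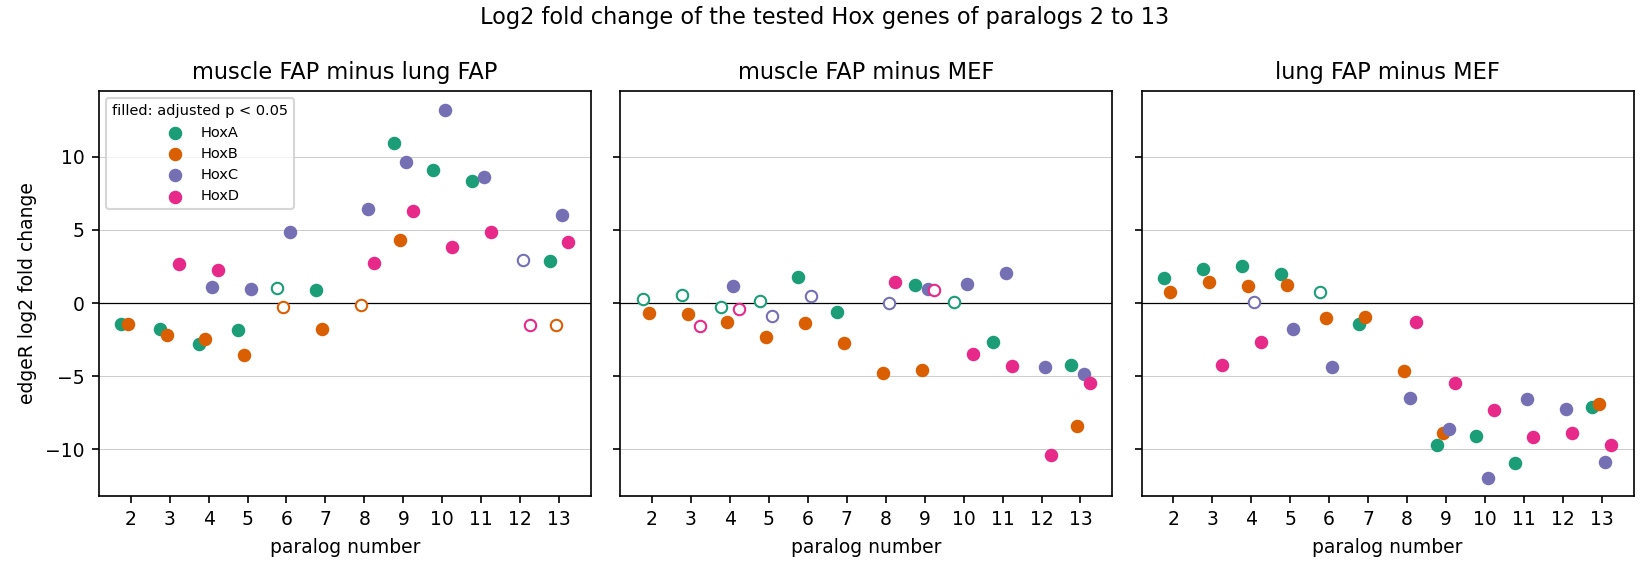
edgeR log2 fold change of the tested Hox genes of paralogs 2 to 13 (points, coloured by cluster, filled where the adjusted p is under 0.05) against paralog number, for muscle minus lung FAPs, muscle FAPs minus MEFs and lung FAPs minus MEFs. In the first panel HoxA turns from lower to higher between Hoxa5 and Hoxa7, the passing HoxC and HoxD genes are all higher, Hoxb9 is the 1 HoxB gene that passes upward, and in the third panel values fall with paralog number. For a gene without counts in a group the plotted value depends on the prior count.

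Read by paralog group, the muscle FAP pattern peaked at paralog 10. Summed levels rose from 19.5 CPM for paralog 9 to 50.96 for paralog 10 and were 7.07 for paralog 11, 0.0216 for paralog 12 and 0.8902 for paralog 13. In MEFs the same sums were 57.5, 35.3, 28.3, 5.04 and 36.4 CPM, and in lung FAPs they ran from 0.147 to 0.00665. In lung FAPs the sums were highest for paralogs 5 (34.9) and 3 (29.3). Members of a paralog group were not used alike. Per kb of exons, the paralog 9 genes of muscle FAPs stood at 2.02 for Hoxa9, 0.795 for Hoxb9, 3.07 for Hoxc9 and 1.69 for Hoxd9. In MEFs these were 0.8604, 19.03, 1.56 and 0.933 CPM per kb, so that Hoxb9 alone led. For paralog 10, Hoxa10, Hoxc10 and Hoxd10 stood at 5.91, 16.8 and 0.213 CPM per kb in muscle FAPs and 5.71, 6.83 and 2.36 in MEFs. For paralog 13, Hoxa13, Hoxb13, Hoxc13 and Hoxd13 stood at 0.987, 0.503, 2.56 and 11.2 CPM per kb in MEFs.

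Muscle libraries also differed from each other. Muscle FAP 2 was the highest of the 4 for 9 of 13 genes of paralogs 1 to 5 with a mean of at least 0.1 CPM, and the lowest for 6 of 8 of paralogs 10 to 13. Muscle FAP 4 was the lowest for 10 of 13 of paralogs 1 to 5 and the highest for 4 of 8 of paralogs 10 to 13. The share of paralogs 9 to 13 in the Hox sum was 43.9, 49.8, 61.6 and 49.3% in muscle FAPs 2 to 5. The HoxB sum was 20.96, 21, 9.501 and 21.97 CPM, lowest in muscle FAP 4, and muscle FAP 4 was the lowest for 7 of 8 HoxB genes. Hoxc10 in muscle FAP 4 was, at 35.3 CPM, the highest of the 4. These genes share their libraries and the counts carry no test.

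Hoxb9 varied widely among muscle libraries, and markers of other cells moved with it. The pattern was not particular to Hoxb9. Hoxb6, Hoxb8, Hoxc6, Hoxc8 and Hoxc9 were also highest in muscle FAP 3 and 5, while Hoxc10 and Hoxc11 were highest in muscle FAP 4. The summed level of 5 mesothelial markers was 2.07, 22.7, 1.15 and 26.97 CPM in muscle FAPs 2 to 5, high in 3 and 5 like Hoxb9. Their defining member Upk3b stood at 0.233, 5.23, 0.0576 and 5.51 CPM and Lrrn4 was at 0 in 1 muscle library. The sum was 361 to 856 CPM in lung FAPs, where Hoxb9 was far lower, and 102 to 135 in MEFs. The sum of 4 tenocyte markers, 1073, 1642, 851 and 1411 CPM, was likewise highest in muscle FAP 3 and 5. The part of other cells in the level of Hoxb9 or of the other Hox genes was not tested. Among lung libraries, lung FAP 2 held the highest Hoxa5 and Hoxa2 and the lowest Hoxc4, Hoxc5 and Hoxc6. Lung FAP 1 was the lowest for 6 of 7 HoxB genes. Lung FAP 2 also held the highest sums of endothelial, pericyte and smooth muscle, and satellite cell and myoblast markers, and the part of those cells in the Hox values was not tested. Without lung FAP 2 and 3, the edgeR log2 fold change of Hoxa5 for muscle against lung FAPs was −1.74 and Hoxb4 gave −2.51.

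**Figure D4:**
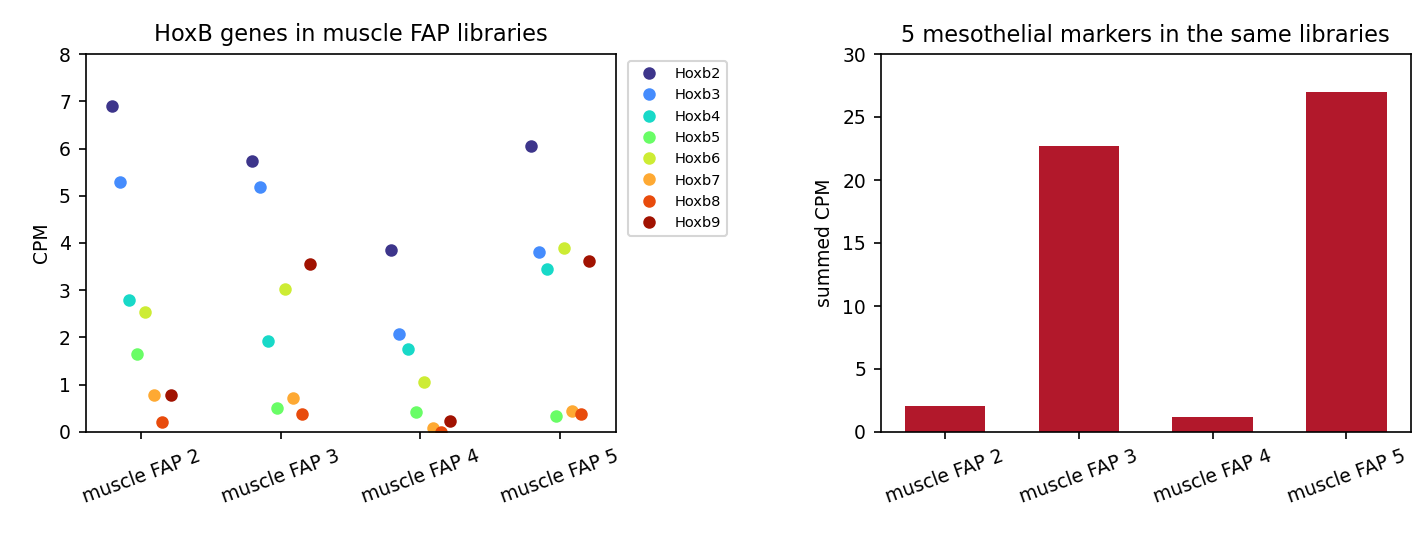
Left, CPM of Hoxb2 to Hoxb9 in the 4 muscle FAP libraries, each gene a colour. Right, summed CPM of 5 mesothelial markers in the same libraries. Muscle FAP 4 is low in most HoxB genes, and Hoxb9 and the mesothelial sum are both higher in muscle FAP 3 and 5 than in 2 and 4.

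The tested non-coding RNAs of the clusters had the group order of a Hox gene beside them, though not of every such gene. Of a list of 19 such RNAs, 8 were in the table and 3 were tested, all 3 higher in muscle than in lung FAPs, beside 23.2% of all genes tested. None of the 3 had more than 1 count in lung FAPs, and they passed the filter through the other groups. A lower call was therefore hardly possible for them. Hotair, the antisense RNA between Hoxc11 and Hoxc12, stood at 1.31, 1.24, 1.81 and 1.56 CPM in muscle FAPs and 0.388, 0.382, 0.2498 and 0.4097 in MEFs, with no count in lung FAPs (at least 82.4-fold, edgeR adjusted p = 3.22e-06). Muscle libraries lay above MEFs without overlap, as for Hoxc11. Hoxc12, on the other side of Hotair, had the reverse order, at a mean of 0.515 CPM in MEFs and 0.0216 in muscle FAPs. Hoxa11as stood at 1.92, 1.74, 2.48 and 1.92 CPM in muscle FAPs and 8.43, 11.04, 12.1 and 9.38 in MEFs, with 1 count in lung FAPs (ratio 337, 95% counting interval 59.9 to 13350.1), and shares its overlap with Hoxa11. Mir196a-1, the microRNA gene 6.19 kb before Hoxb9, stood at 0.654, 0.7004, 0.977 and 0.901 CPM in MEFs, 0, 0.177, 0 and 0.0599 in muscle FAPs and 0 counts in lung FAPs, the order of Hoxb9. With 2 muscle libraries at 0 it overlapped lung FAPs, and it was at least 3.301-fold above the lung group's floor of 3 counts (adjusted p = 0.03901 in edgeR). These counts do not separate a precursor from the mature microRNA. The mature sequences of the microRNAs by paralogs 9 and 10 and of those by Hox4 genes are shown from RefSeq (GRCm38.p6). The former lie by Hox genes that were not present in lung FAPs and are known to act on Hox messages. Capitals mark the seed, bases 2 to 8, which each pair shares.
miR-196a-5p: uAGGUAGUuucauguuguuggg
miR-196b-5p: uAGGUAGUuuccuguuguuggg
miR-10a-5p: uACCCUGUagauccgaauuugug
miR-10b-5p: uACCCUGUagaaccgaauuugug

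Hox proteins bind DNA together with the TALE homeodomain proteins Pbx, Meis and Pknox. Of 9 such genes, 4 were lower and 1 higher in muscle than in lung FAPs, where 25.0% and 23.2% of all genes tested were, 48.2% in either direction. Meis1 stood at 20.1, 31.97, 20.96 and 28.4 CPM in the muscle libraries, 57.5, 59.4, 61.5, 60.3 and 67.9 in the lung libraries and 17.4 ± 1.45 in MEFs, without overlap between the FAPs (log2 fold change −1.27 with SE 0.168, edgeR adjusted p = 2.33e-06). Pbx2 and Pbx4 were also lower in muscle FAPs by 1.72-fold and 7.02-fold, and Meis3 was higher by 1.24-fold (edgeR adjusted p = 0.04898). Meis2 and Pbx3 did not pass, with log2 fold changes of −0.27 and 0.35. Against MEFs, 4 were higher and 3 lower in muscle FAPs, and 4 higher in lung FAPs, where 73.5% and 74.4% of all genes passed in either direction.

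Genes of the Polycomb and Trithorax systems, which hold Hox clusters silent or active, moved in both directions. Of 23 Polycomb genes, 6 were higher and 6 lower in muscle than in lung FAPs, near the shares of all genes (23.2% and 25.0%). Against MEFs, 13 were higher and 7 lower in muscle FAPs, where 36.1% and 37.3% of all genes were, and 11 were higher and 5 lower in lung FAPs, where 37.8% and 36.6% were. Kdm6b, a demethylase of the Polycomb mark, stood at 350.3, 525, 471 and 302 CPM in the muscle libraries and 156, 122, 218, 149 and 211 in the lung libraries, higher in the former without overlap (log2 fold change 1.27 with SE 0.244, edgeR adjusted p = 2.18e-04). Cbx2, a reader of that mark, stood at 1.75, 1.63, 1.35 and 2.69 and 5.13, 3.91, 7.44, 4.85 and 7.52 CPM and was lower in muscle FAPs (log2 fold change −1.64 with SE 0.274, edgeR adjusted p = 1.61e-04). Of 8 Trithorax genes in the table, 3 were higher and 2 lower in muscle than in lung FAPs, against the same 23.2% and 25.0%, and 3 higher and 4 lower in muscle FAPs than in MEFs. Mll1, the methyltransferase that keeps Hox genes active, stood at 105 ± 24.1 and 66.7 ± 11.3 CPM (log2 fold change 0.66 with SE 0.2098, edgeR adjusted p = 0.00766), and Dpy30, a subunit of its complex, at 6.29 ± 1.64 and 12.8 ± 2.63 (log2 fold change −1.03 with SE 0.219, edgeR adjusted p = 3.99e-04).

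Genes that flank the clusters were counted apart. Next to HoxA there were 2 higher and 1 lower of 5 tested in muscle against lung FAPs, next to HoxB 1 higher and 1 lower of 8 tested, next to HoxC 2 lower of 6 tested and next to HoxD 2 lower of 5 tested. Over all genes 23.2% were higher and 25.0% lower. Against MEFs, 4 of 5 HoxA neighbours were higher in muscle FAPs and 5 of 5 in lung FAPs, while 6 of 8 HoxB neighbours were lower in each. HoxC neighbours stood at 1 higher and 4 lower in muscle FAPs and 3 and 3 in lung FAPs, and HoxD neighbours at 1 and 2 and at 2 and 2. Over all genes 36.1% were higher and 37.3% lower than MEFs in muscle FAPs, with 37.8% and 36.6% in lung FAPs. The log2 fold changes of those named by rule, for muscle against lung FAPs, were Skap2 (−1.78) and Jazf1 (1.13) by HoxA, Atp5g1 (−0.52) and Nfe2l1 (0.51) by HoxB, Cbx5 (−0.97) and Smug1 (−0.55) by HoxC, and Chn1 (−1.05) and Mtx2 (−0.70) by HoxD. Between the FAPs, the passing neighbours of HoxC and of HoxD were all lower in muscle FAPs. They were 33.3% and 40% of those tested, beside 25.0% of all genes, and counts this small do not set them apart from other genes.

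Of other factors of limb and trunk position there were 4 higher and 4 lower of 10 tested in muscle against lung FAPs, beside 23.2% and 25.0% of all genes. Tbx15, a T-box gene known for skeletal and skin patterning of limb and trunk, had 199, 167, 236 and 118 CPM in muscle FAPs and 0, 0.799, 1.25, 0.365 and 1.23 CPM in lung FAPs (log2 fold change 7.94 with SE 0.886, edgeR adjusted p = 6.61e-08). En1, known for ventral limb ectoderm and dorsal trunk skin, had 11.8 ± 1.22 CPM in muscle FAPs and 2 counts in lung FAPs. Shox2 and Pitx1 were the other higher genes, and Tcf21, Foxf1, Tbx4 and Tbx5 were the lower ones. Of the genes that set Hox expression in the embryo, Cdx1, Cdx2 and Cdx4 were at or under the floor of 3 counts in both kinds of FAP, and 2 were higher and 2 lower of 6 tested, against the same shares of all genes. Cyp26b1, which degrades retinoic acid, stood at 11.1, 24.8, 16.01 and 15.9 CPM in the muscle libraries and 2.18, 1.83, 2.23, 0.498 and 2.71 in the lung libraries, higher in every muscle library (log2 fold change 3.16 with SE 0.479, edgeR adjusted p = 4.24e-05). Rarg, a retinoic acid receptor, stood at 51.6 ± 9.17 and 94.4 ± 20.4 CPM and was lower (log2 fold change −0.87 with SE 0.2002, edgeR adjusted p = 7.75e-04).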

How the data were processed

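Gene counts of 13 mouse RNA-seq libraries were used. The submitters' processing notes name Bowtie2 2.1.0.0, HTSeq, edgeR and the build mm10, without their roles, and the authors deposited 1 raw count per gene and library. Annotation, strand, read length and filters are not stated in the labels.

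Counts were scaled by TMM and fitted in edgeR 4.0.16 (R 4.3.3, quasi-likelihood, robust), with all 13 libraries together by group, on the 15412 genes kept by filterByExpr. Adjusted p is Benjamini-Hochberg over all of them. The SE comes from log2 CPM with a prior count of 2. Folds are ratios of mean CPM. Against a group without counts a fold is a lower bound at 3 counts over the group, and with 1 to 3 counts a ratio has an exact 95% counting interval. Both cover counting error only. The fit was tested on simulated data. Positions and exon lengths come from GENCODE M21 (GRCm38). No replicates were identical. The Hox genes, the lists and the comparisons were chosen with earlier results of these data known. Library values are given for the leading member per kb, the last present paralog and the next in each cluster and group, and the 8 largest passing changes per comparison with at least 1 CPM. From each list the 2 largest passing changes with at least 5 CPM are named, and TALE genes. A Hox gene and a TALE gene are not reported here by name. Genes named beyond this were chosen after their values were seen. Alternatives used DESeq2 1.42.0 and limma 3.58.1, other scalings, filters and tests, a replicate block, and libraries left out.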

Additional observations from a re-analysis of the deposited data

Results flagged for a closer look

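Of 99 pairs of a Hox gene and a group, 6 held a library far from the others by Dixon's test at its 95% level, and chance gives about 1 in 20. Muscle FAP 2 was high for Hoxa4 (1.14 CPM, with 0.461 to 0.539 in the other libraries of its group), for Hoxb5 (1.66 CPM, with 0.329 to 0.503 in the other libraries of its group) and for Hoxc4 (7.22 CPM, with 4.72 to 5.12 in the other libraries of its group). These are anterior genes of the A, B and C clusters in the same library. In lung FAPs, Hoxd9 was high in lung FAP 5 (0.181 CPM, with 0 to 0.0297 in the other libraries of its group), from 6 counts. In MEFs, Hoxb6 was high in MEF 3 (8.34 CPM, with 5.96 to 6.3 in the other libraries of its group) and Hoxd12 in MEF 2 (5.84 CPM, with 4.04 to 4.12 in the other libraries of its group).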

How the results depend on the processing

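Leaving out 1 library at a time gave 19 to 21 higher and 9 lower Hox genes for muscle against lung FAPs, 7 to 8 and 17 to 20 for muscle FAPs against MEFs, and 8 to 9 and 26 to 27 for lung FAPs against MEFs. A filter of 5 CPM in 4 libraries left 20 Hox genes and gave 12 higher in muscle than in lung FAPs, 3 higher and 12 lower in muscle FAPs than in MEFs, and 14 lower in lung FAPs than in MEFs, with every call among the genes left kept. With the compared groups alone 27 Hox genes were tested for muscle against lung FAPs and 12 were higher, with Hoxc5 and Hoxd4 lost among those tested. edgeR's glmTreat against a 2-fold change kept 22 of the 30 calls for muscle against lung FAPs. It lost those of Hoxa2, Hoxa7, Hoxa13, Hoxb7, Hoxc4, Hoxc5, Hoxd3 and Hoxd4. For muscle FAPs against MEFs it kept 16 of 26, with 3 higher, and the lost calls included Hoxb2, Hoxb3, Hoxb4 and Hoxb6. For lung FAPs against MEFs it kept 28 of 35, with 5 higher. Library size as the only scaling moved the median log2 fold change of all genes by −0.406, −0.576 and −0.17 in the 3 comparisons and gave 4 higher in muscle FAPs than in MEFs. At 2 CPM, 8 genes were present in lung FAPs.

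Genes whose sign turned had not passed. With library size only, Hoxa2 −0.27, Hoxa3 −0.023, Hoxa5 −0.44, Hoxa10 −0.53 and Hoxc6 −0.078 for muscle FAPs against MEFs, and Hoxc4 −0.15 for lung FAPs against MEFs. Of these, Hoxa10 alone passed there. Hoxa10 was −0.0075 under upper-quartile scaling, −0.0087 without MEF 2 and 4 and −0.051 without muscle FAP 3 and 5, the last an alternative chosen after seeing the data. Hoxb8 was 0.84 for muscle against lung FAPs without lung FAP 2 and 3. Hoxc8 was 0.032 for muscle FAPs against MEFs under the 5 CPM filter and 0.016 with the compared groups alone. With 1 library left out, Hoxb8 ran from −0.42 to 0.41 for muscle against lung FAPs, Hoxa5 from −0.026 to 0.24, Hoxa10 from −0.0024 to 0.067 and Hoxc8 from −0.27 to 0.22 for muscle FAPs against MEFs, and Hoxc4 from −0.062 to 0.19 for lung FAPs against MEFs. The cause was not tested for these.

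The labels do not say whether a shared replicate number pairs samples of different groups. Deviations of same-numbered libraries correlated at −0.0484 to 0.0612, and their own number was the best match for 1 of 4, 2 of 3 and 1 of 4. So few pairs cannot decide whether the samples were paired. With the replicate number as a block there were 19 higher and 9 lower Hox genes for muscle against lung FAPs, 6 and 19 for muscle FAPs against MEFs, and 8 and 26 for lung FAPs against MEFs. Depth limits the lung values of paralogs 9 to 13, where 7 Hox genes rest on 1 to 3 counts.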
